A study of Rattus norvegicus with 6 samples.

Results

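The 49 genes described here encode leukocyte surface and signalling markers, chemokines with their receptors, inflammatory cytokines, and complement components with their inhibitors. They were taken by symbol and not by a threshold on measured values. Of the 49, 47 had a probe matched through its RefSeq transcript and 43 were tested, among 31582 genes or sequences tested in all. RNA of the renal cortex came from 6 male rats of the Sprague-Dawley stock, purchased when 5 weeks old, and each animal was read on its own single-colour Agilent array. The BBMP group held 3 rats given 2,2-bis(bromomethyl)-1,3-propanediol, a brominated diol used as a flame retardant, at 1000 mg/kg/day for 4 weeks. The vehicle group held 3 rats given corn oil over the same 4 weeks. All 6 animals shared strain, sex, supplier and basal diet, and animals of 1 group are biological replicates by the design text. The comparison asks which of these genes differed in the cortex after BBMP.

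The kidney holds resident macrophages and dendritic cells between its tubules, and smaller numbers of T and B cells. Injured tubule cells release chemokines, which bind receptors on circulating leukocytes and draw them into the tissue, and macrophages release cytokines such as IL-1β and TNF. Complement is a cascade of plasma proteins, partly made in the kidney itself, in which the classical pathway (C1q, C1s, C2, C4) and the alternative pathway (factors B and D) both lead to cleavage of C3, while inhibitors such as C1 inhibitor and factor I restrain it.

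Slide 2 (scan 2) carried the 3 BBMP arrays and slide 1 (scan 1) the 3 vehicle arrays, so an effect of slide or scan and one of treatment cannot be told apart. The 75th percentile of the processed signal was 1244 to 1259 on BBMP arrays and 943 to 950 on vehicle arrays, and 70.5% to 72.7% of probes were well above background on BBMP arrays against 67.2% to 68.6% on vehicle arrays. Values below are log2 of the processed signal over the array's 75th percentile, called normalised log2 signal, so 0 is the level of the 75th percentile probe. All 11 renal cortex markers, among them the proximal tubule transporters Slc34a1, Slc5a2 and Slc22a6 and the glomerular Nphs1, were well above background on all 6 arrays, so the markers of the labelled tissue were present. Each probe has its own brightness, so levels were compared between animals and not between genes.

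Of the 43 tested genes, 3 were higher in BBMP cortex, with a Benjamini-Hochberg adjusted p under 0.05 in limma over all 31582 genes or sequences. They were Csf1r, the receptor that macrophages need for survival, and the T cell genes Lck and Cd5. None was lower, with 9 of the 43 at an unadjusted p under 0.05, against 36.6% of all tested. Over all genes or sequences tested, 17.9% passed the adjusted threshold, 10.2% higher and 7.68% lower. Cd5 passed the filter on dim probes through the BBMP arrays alone, so it could enter the test only by reading high there, and its call and sign support no count. Of the 42 genes well above background on all 6 arrays, limma called 2, Csf1r and Lck, or 4.76%, against 20.0% of all 29447 genes or sequences that met the same condition. The median log2 difference, BBMP minus vehicle, was 0.038 over the 43 genes and 0.049 over all tested. Of the 43, 23 were positive, Cd5 among them, against 56.4% of all tested. BBMP and vehicle values did not overlap for 8 of the 43 genes, Laptm5, Fcer1g, Cd5, Lck, Csf1r, Cx3cr1, C1s and C4a, and for 43.6% of all tested. The median and both counts thus include Cd5, and the figures over all tested also include genes that entered through a single group. In whole cortex, more cells of a type and more RNA per cell cannot be told apart. Of the calls over all genes 57.1% were higher, against 36.4% with normexp background correction, which starts from the raw spot signal, and 46.6% with cyclic loess. Of the 43 genes, normexp called 2 higher and 3 lower. With slide row as a block, limma called 0 genes over all tested and 0 of the 43 (7288 and 6 at an unadjusted p under 0.05). Among the 42 genes, differences ranged from -0.45 for Ccl2 to 0.51 for Lck.

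**Figure D1:**
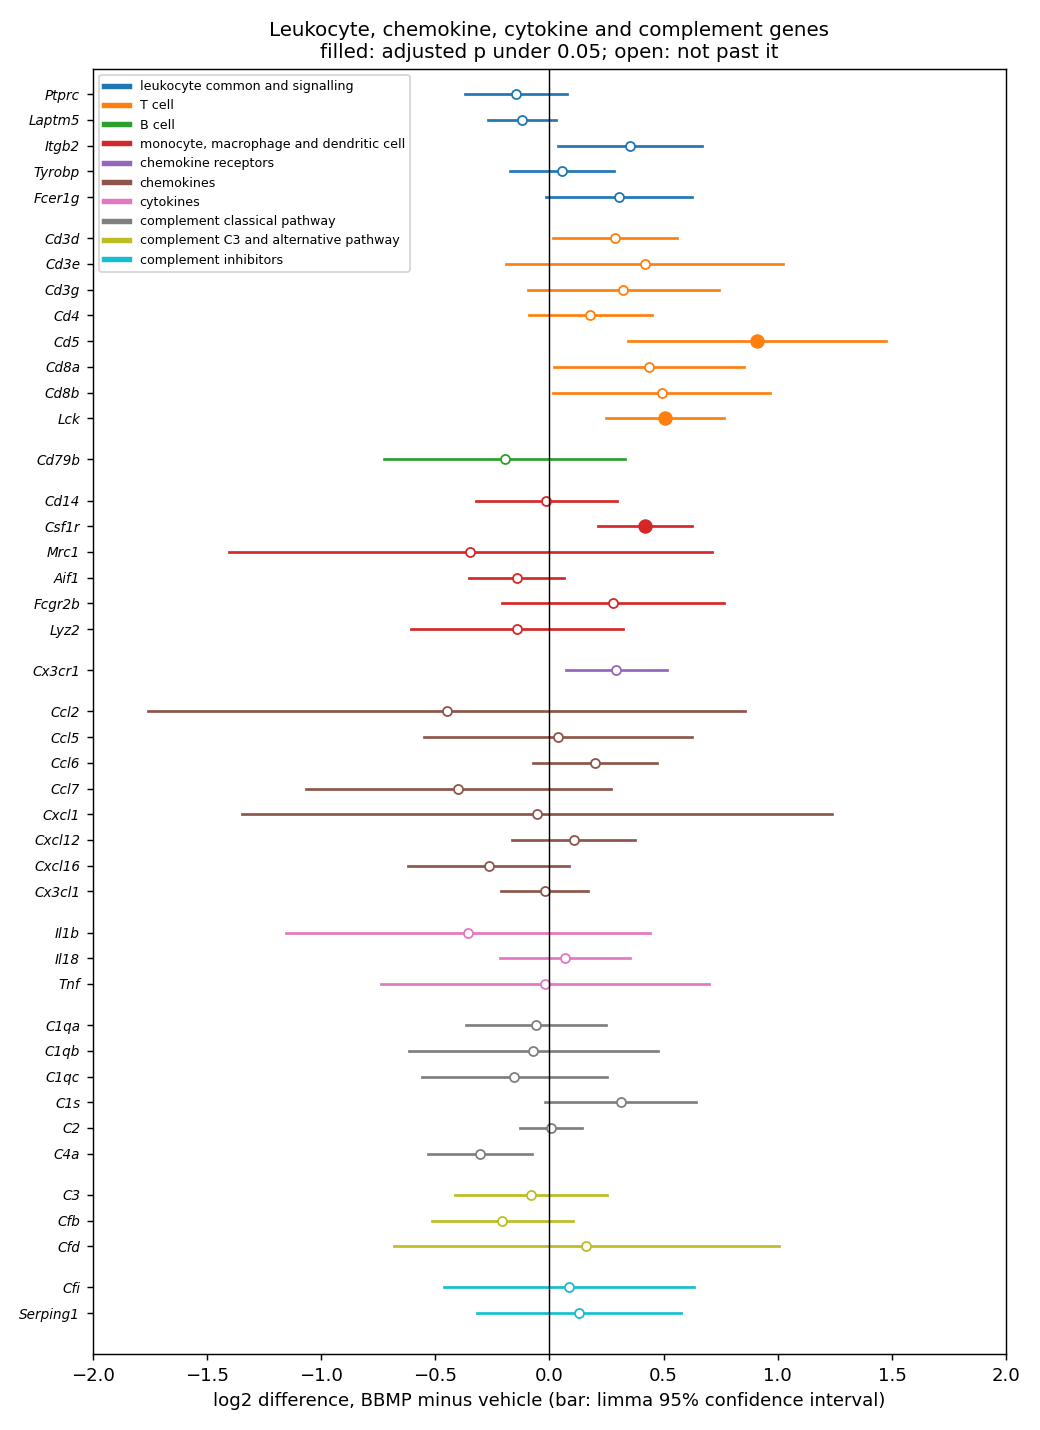
Log2 difference (BBMP minus vehicle, horizontal axis) of each of the 43 tested genes, one row per gene, coloured by role, with the limma 95% confidence interval as a bar. Only Cd5, which passed the filter through the BBMP arrays alone, Csf1r and Lck have filled points (adjusted p under 0.05); the widest intervals are those of Ccl2, Cxcl1 and Mrc1.

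For 6 of the 49 genes there was no test. Cd79a and Itgax had no matched probe. Cd163, a scavenger receptor of macrophages, had 3 probes and Il6 had 1, and none of them was well above background on any array of either group. Itgam, the integrin CD11b, was well above background on 2 BBMP arrays and 1 vehicle array. The better of 2 probes for Ccr2, the receptor of CCL2, passed on 2 BBMP arrays and 2 vehicle arrays.

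Among the genes of monocytes, macrophages and dendritic cells, 1 of 6 tested was called higher, against 10.2% of all tested. The other 5 did not pass the test. Csf1r had a normalised log2 signal of -0.91, -0.81 and -0.79 in the BBMP rats, against -1.40, -1.18 and -1.18 in the vehicle rats. Every BBMP animal was above every vehicle animal, and Csf1r was 1.34-fold higher (95% confidence interval 1.16 to 1.54; limma adjusted p = 0.0274). A second Csf1r probe read -1.37, -1.41 and -1.40 in the BBMP rats, against -1.75, -1.61 and -1.89 in the vehicle rats. The second probe thus separated the groups in the same direction, with a log2 difference of 0.36 (limma adjusted p = 0.039 over all probes). With normexp the Csf1r difference was 0.33 and still past the threshold. The call needed nearly all arrays: without any single animal other than vehicle replicate 3, the limma adjusted p of Csf1r lay between 0.0589 and 0.0846.

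The 5 other genes of this group did not pass the test. Lyz2, the lysozyme of phagocytes, read 5.88, 6.47 and 6.56 in BBMP rats, against 6.56, 6.40 and 6.37 in vehicle rats. Its groups overlapped, with BBMP replicate 1 lowest of all 6, and the difference was -0.14 (95% confidence interval -0.61 to 0.32; limma adjusted p = 0.621). Cd14, the co-receptor for bacterial lipopolysaccharide, differed by -0.014, and Aif1, the macrophage protein IBA1, by -0.14. Mrc1, the mannose receptor, differed by -0.35 with an interval of -1.40 to 0.71, and the inhibitory Fc receptor gene Fcgr2b by 0.28 on the probe used and by -0.26 on its second probe. None of these 4 passed the test, and 2 of the 6 genes in the group had a positive difference. Of 16 tested macrophage and dendritic cell markers outside the 49, 0 were called in limma. The 2 at an unadjusted p under 0.05, Cd53 and Cd48, were both lower in BBMP rats, with differences of -0.18 and -0.47. Cd53, Cd48, Coro1a and Ptpn6 in this list are also genes of other leukocytes. The median difference of the 16 markers was 0.023, counting Msr1, which entered through the BBMP arrays alone. Their summed linear level, in multiples of the 75th percentile, was 26.8 to 28.3 in BBMP rats and 26.9 to 27.9 in vehicle rats, so the groups overlapped.

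**Figure D2:**
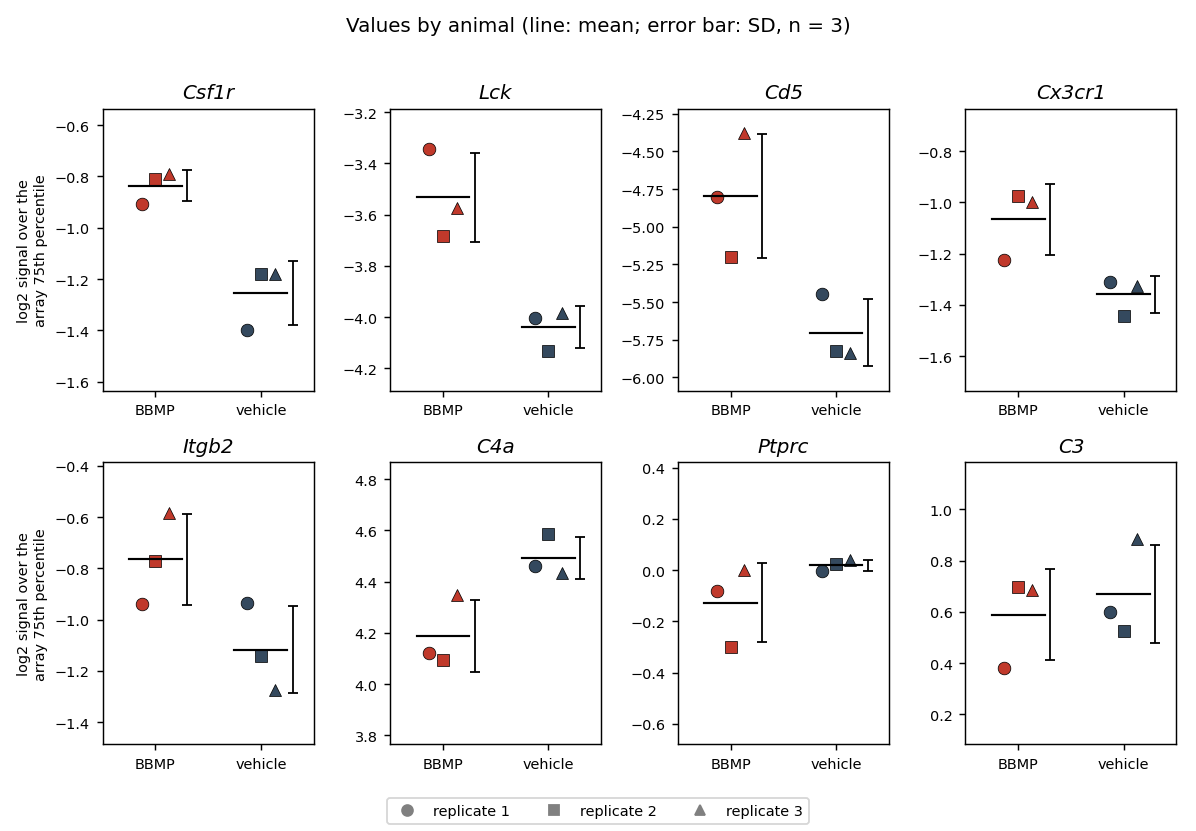
Normalised log2 signal (vertical axis, a separate scale for each gene) of Csf1r, Lck, Cd5, Cx3cr1, Itgb2, C4a, Ptprc and C3 in each rat, BBMP left and vehicle right, with the group mean as a line and the SD as an error bar (n = 3). Csf1r, Lck, Cd5 and Cx3cr1 lie higher in all 3 BBMP rats and C4a lies lower, while the groups overlap for Itgb2, Ptprc and C3.

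Of the 7 T cell genes well above background on all 6 arrays, all had a positive difference, with a median of 0.42. Of these 7, 1, Lck, passed the test, against 20.0% of all genes or sequences meeting that condition. The remaining T cell gene, Cd5, also passed but entered through the BBMP arrays alone. Lck encodes the kinase that starts signalling from the T cell receptor. It read -3.34, -3.68 and -3.57 in BBMP rats, against -4.00, -4.13 and -3.98 in vehicle rats. The groups did not overlap, and Lck was 1.42-fold higher (95% confidence interval 1.19 to 1.70; limma adjusted p = 0.0294). Cd5, a surface receptor that dampens T cell receptor signalling, read -4.80, -5.20 and -4.38 in BBMP rats, against -5.45, -5.83 and -5.84 in vehicle rats. All 3 BBMP arrays were well above background for Cd5 and 0 of the 3 vehicle arrays were, so only a bound can be given. Cd5 was at least 1.88-fold higher in BBMP cortex, comparing the BBMP mean with the vehicle mean of the higher of the probe's own signal and the array's lowest signal well above background (limma adjusted p = 0.0466). On all 3 vehicle arrays that was the probe's own signal, so the bound equals the fitted fold, whose 95% confidence interval was 1.27 to 2.78. The bound does not allow for sampling error, and folds below 1.88 lie within that interval. Neither call held with normexp, quantile normalization or cyclic loess, and that of Cd5 also ended with median scaling and without the filter on dim probes. Without any single animal, the limma adjusted p lay between 0.0563 and 0.0818 for Lck and between 0.0562 and 0.117 for Cd5.

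The Cd5 promoter is shown because Cd5 was one of the called genes and read above background in BBMP rats alone. The 250 bases upstream of its annotated start come from RefSeq's GRCr8 assembly, chr1:216811210-216811459, minus strand. Capitals mark the sequence GAGGAA, the core bound by PU.1 and related ETS factors, which lies 91 to 86 bases before the start.
Cd5: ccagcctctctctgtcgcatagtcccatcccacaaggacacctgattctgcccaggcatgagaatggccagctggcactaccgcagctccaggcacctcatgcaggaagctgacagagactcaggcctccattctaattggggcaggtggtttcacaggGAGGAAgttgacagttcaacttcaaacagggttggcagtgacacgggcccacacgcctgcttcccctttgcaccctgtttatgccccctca
Searched on both strands, GAGGAA was present in the 250 bases of 15 of the 34 genes with a promoter in the table, and in 23.3% of all 33469 promoters. A match shows only that the letters are there.

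The remaining T cell genes were positive without passing the test. Cd3d, a chain of the T cell receptor complex, read 0.41, 0.26 and 0.51 in BBMP rats, against 0.29, 0.016 and 0.0067 in vehicle rats. BBMP replicate 2 lay below vehicle replicate 1, and the difference was 0.29 (95% confidence interval 0.014 to 0.56; limma adjusted p = 0.123). Its partner chains Cd3e and Cd3g differed by 0.42 and 0.32. The coreceptor genes differed by 0.18 for Cd4, 0.44 for Cd8a and 0.49 for Cd8b, with limma adjusted p of 0.287, 0.125 and 0.126. BBMP replicate 2 had the lowest BBMP value for 7 of the 8 genes, all but Cd4, a pattern noticed after the values were seen.

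Most T cell genes were dim, and dim probes as a whole read higher on the BBMP arrays. In the dimmest decile of all genes tested the median difference was 0.29, in the following deciles 0.16, 0.12, 0.061 and 0.041, and in the 5 brightest deciles it lay between -0.021 and 0.0096. Relative to the median of their own decile, the 7 T cell genes other than Cd5 had positive signs, with a median of 0.32. These 7 were also positive with quantile normalization (median 0.31), cyclic loess (0.29) and median scaling (0.34), and without any single animal (0.26 to 0.52). With normexp, 6 of the 7 were positive with a median of 0.096. Lck then differed by 0.057, Cd5 by -0.084 and Cd3d by 0.35, the last past the threshold. Normexp did not shrink every dim difference. In the dimmest decile, Cd79b and Ccl7 differed by -0.34 and -0.42 with normexp, against -0.20 and -0.40 without it. Of 14 other T and NK cell markers, 13 were tested and 0 were called in limma (2 at an unadjusted p under 0.05). Their median was 0.24, with 9 positive, or 6 with normexp. Klrb1a (0.46, or -0.15 with normexp) was among the 9 but entered through the BBMP arrays alone, with 2 vehicle arrays well above background. The summed linear level of the 13 markers was 3.73 to 4.72 in BBMP rats and 3.20 to 4.12 in vehicle rats. The part of signal brightness in the T cell differences was not tested.

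**Figure D3:**
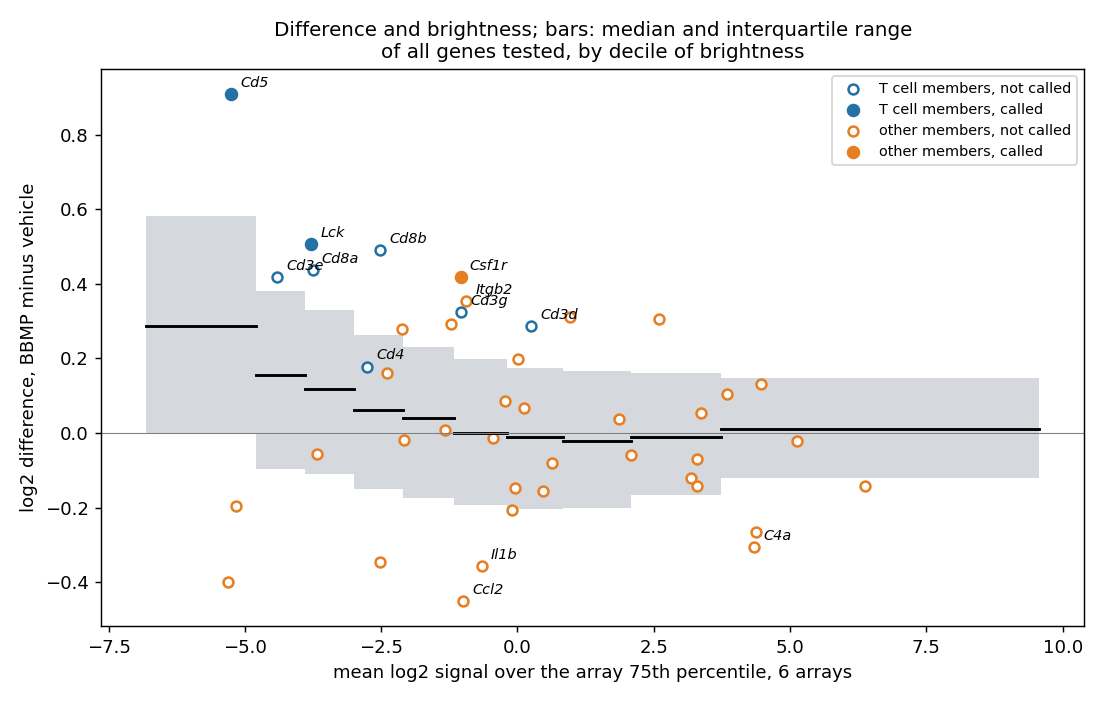
Log2 difference (BBMP minus vehicle, vertical axis) of the 43 genes against their mean normalised log2 signal over 6 arrays (horizontal axis), with T cell genes in blue and the others in orange. Black lines and grey boxes give the median and interquartile range of all genes tested in each decile of brightness. The 8 T cell genes lie above the black lines, Cd5 among them after entering through the BBMP arrays alone, and the line itself stands at 0.29 in the dimmest decile.

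For B cells, only Cd79b, a signalling chain of the B cell receptor, could be tested. It read -5.08, -5.29 and -5.43 in BBMP rats, against -5.07, -4.67 and -5.47 in vehicle rats. The groups overlapped, and the difference was -0.20 (95% confidence interval -0.73 to 0.33; limma adjusted p = 0.548). Of 9 B cell and plasma cell markers outside the 49, 5 were tested. Of the 5, 1, Blnk, was called higher in limma, against 10.2% of all tested. The summed linear level of the 5 was 2.27 to 2.55 in BBMP rats and 1.80 to 2.16 in vehicle rats, without overlap. Their median difference was 0.17, or -0.032 with normexp. Cd22, among the 5, entered through the BBMP arrays alone.

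None of the 5 genes shared by most leukocytes or by myeloid signalling passed the test. Ptprc, which encodes the common leukocyte antigen CD45, read -0.082, -0.30 and -0.00083 in BBMP rats, against -0.0051, 0.023 and 0.039 in vehicle rats. The groups overlapped, since BBMP replicate 3 lay above vehicle replicate 1, and the difference was -0.15 (95% confidence interval -0.37 to 0.076; limma adjusted p = 0.291). Its 4 other tested probes did not move together, with differences of -0.23, -0.0090, 0.27 and 0.081. Itgb2, the beta chain of the leukocyte integrins, read -0.94, -0.77 and -0.58 in BBMP rats, against -0.94, -1.14 and -1.28 in vehicle rats. BBMP replicate 1 and vehicle replicate 1 were nearly equal, and the Itgb2 difference was 0.35 (95% confidence interval 0.036 to 0.67; limma adjusted p = 0.108). Tyrobp, the adaptor DAP12, read 3.33, 3.36 and 3.50 in BBMP rats, against 3.24, 3.49 and 3.30 in vehicle rats. Those groups overlapped, with a difference of 0.055 (95% confidence interval -0.17 to 0.28; limma adjusted p = 0.702). Fcer1g, the Fc receptor gamma chain, was higher in every BBMP rat with a difference of 0.30, and Laptm5, a lysosomal protein of blood cells, was lower in every BBMP rat with a difference of -0.12. Their limma adjusted p were 0.152 and 0.213. On a second Fcer1g probe the groups overlapped, with a difference of 0.13.

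Neither gene of the fractalkine pair passed the test, and the probes of each gene differed in whether the groups overlapped. Cx3cr1, the fractalkine receptor of monocytes and tissue macrophages, read -1.23, -0.98 and -0.997 in BBMP rats, against -1.31, -1.44 and -1.33 in vehicle rats. Every BBMP value was above every vehicle value, but the difference of 0.29 did not pass the test (95% confidence interval 0.071 to 0.52; limma adjusted p = 0.0741). A second, dimmer Cx3cr1 probe read -3.08, -2.85 and -3.28 in BBMP rats, against -3.17, -3.05 and -3.54 in vehicle rats, overlapping with a difference of 0.19. Its ligand gene Cx3cl1 read 5.19, 5.06 and 5.08 in BBMP rats, against 5.22, 5.02 and 5.16 in vehicle rats. Those ranges overlapped, and the interval of the difference, -0.21 to 0.17 around -0.021, was among the narrower ones of the chemokines (limma adjusted p = 0.869). A second Cx3cl1 probe read 0.88, 0.77 and 0.80 in BBMP rats, against 0.65, 0.58 and 0.74 in vehicle rats, without overlap and with a difference of 0.16 (limma adjusted p = 0.163 over all probes).

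Of the 8 chemokine genes tested, 0 passed limma's test and 0 had an unadjusted p under 0.05. Ccl2, the main attractant of monocytes, read -0.99, -0.66 and -2.02 in BBMP rats, against -0.14, -1.73 and -0.45 in vehicle rats. In each group 1 animal stood low, BBMP replicate 3 and vehicle replicate 2. The Ccl2 difference was -0.45 with a 95% confidence interval of -1.76 to 0.86 (limma adjusted p = 0.577). Cxcl1, a neutrophil attractant, read -3.32, -3.19 and -4.60 in BBMP rats, against -3.00, -4.49 and -3.46 in vehicle rats. The same animals were lowest, and the difference was -0.055 with an interval of -1.35 to 1.24 (limma adjusted p = 0.950). On a linear scale that interval runs from 0.393 to 2.35 times the vehicle level. The other chemokine differences were -0.40 for Ccl7, a monocyte attractant, -0.27 for Cxcl16, the ligand of CXCR6, 0.038 for the T cell attractant Ccl5, 0.11 for Cxcl12, the ligand of CXCR4, and 0.20 for Ccl6.

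None of the 3 tested cytokines passed limma's test, and 0 had an unadjusted p under 0.05. Il1b, which encodes interleukin 1 beta, read -0.48, -0.47 and -1.54 in BBMP rats, against -0.25, -0.75 and -0.42 in vehicle rats. BBMP replicate 3 and vehicle replicate 2 were again the lowest of their groups, and the difference was -0.36 (95% confidence interval -1.15 to 0.44; limma adjusted p = 0.469). Tnf read -1.65, -1.97 and -2.65 in BBMP rats, against -1.73, -2.14 and -2.35 in vehicle rats. The groups overlapped, with a difference of -0.019 (95% confidence interval -0.74 to 0.70; limma adjusted p = 0.969). Il18, a cytokine also made by tubule cells, read 0.13, -0.029 and 0.34 in BBMP rats, against -0.042, 0.12 and 0.17 in vehicle rats, with a difference of 0.067 (limma adjusted p = 0.709).

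Spread between rats of the same group was wide for these inducible genes, and also for members of other role groups. The pooled within-group SD was 0.780 for Ccl2, 0.771 for Cxcl1, 0.473 for Il1b and 0.425 for Tnf on the log2 scale, with a median of 0.184 over the 43 genes and 0.13 over all tested. Among genes of the same brightness decile, these SDs stood at the 98.6th, 97.6th, 96.3rd and 93.9th percentile. Mrc1 (SD 0.630, percentile 96.7) and Cfd (SD 0.501, percentile 94.55) had larger SDs than Il1b and Tnf. Lyz2, C1qb, Serping1 and Ccl5 stood at percentiles 96.2, 95.7, 95.7 and 95.5. Between the highest and the lowest rat of a group, Ccl2 spanned 2.58-fold in BBMP rats and 3.01-fold in vehicle rats, and Cxcl1 spanned 2.66-fold in BBMP rats and 2.80-fold in vehicle rats. The shared low animals were noticed after the values were seen, and all genes of an array share its RNA sample and its scaling. Without BBMP replicate 3, the differences were positive, at 0.39 for Cxcl1, 0.0010 for Il1b and 0.26 for Tnf. They were also positive for Cxcl1 without vehicle replicate 1 (0.27) or vehicle replicate 3 (0.040), and for Tnf without vehicle replicate 1 (0.15). The Ccl2 difference was -0.050 without BBMP replicate 3, -0.13 without vehicle replicate 1 and -0.93 without vehicle replicate 2.

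**Figure D4:**
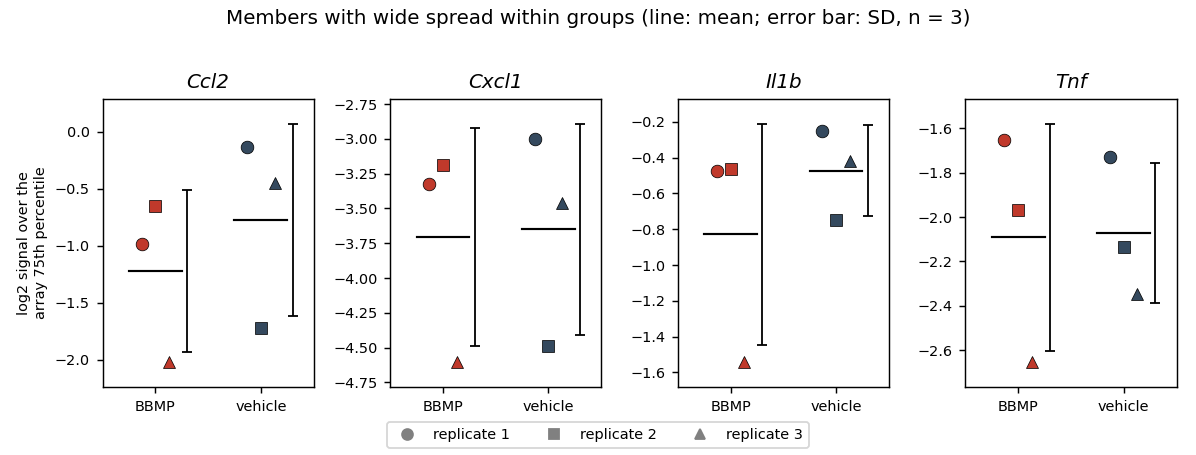
Normalised log2 signal (vertical axis, a separate scale for each gene) of Ccl2, Cxcl1, Il1b and Tnf in each rat, BBMP left and vehicle right, with the group mean as a line and the SD as an error bar (n = 3). BBMP replicate 3 is the lowest BBMP rat in all 4 panels, and vehicle replicate 2 is the lowest vehicle rat for Ccl2, Cxcl1 and Il1b.

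The promoters of Cxcl1 and Il1b, genes with low values in the same animals, are shown for comparison as 250 bases upstream of the RefSeq start in GRCr8. The Cxcl1 window is chr14:17479322-17479571, minus strand, and its capitals mark a pair of overlapping matches to the NF-κB consensus, 84 to 75 bases before the start on the gene's strand and 83 to 74 on the other. The Il1b window is chr3:137036582-137036831, minus strand, and its capitals mark TATAAA, 60 to 55 bases before the start.
Cxcl1: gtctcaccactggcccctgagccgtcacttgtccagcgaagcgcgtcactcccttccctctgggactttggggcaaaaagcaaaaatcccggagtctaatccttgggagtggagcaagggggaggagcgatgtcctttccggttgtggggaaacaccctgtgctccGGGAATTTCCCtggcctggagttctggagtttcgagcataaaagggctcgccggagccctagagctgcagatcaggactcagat
Il1b: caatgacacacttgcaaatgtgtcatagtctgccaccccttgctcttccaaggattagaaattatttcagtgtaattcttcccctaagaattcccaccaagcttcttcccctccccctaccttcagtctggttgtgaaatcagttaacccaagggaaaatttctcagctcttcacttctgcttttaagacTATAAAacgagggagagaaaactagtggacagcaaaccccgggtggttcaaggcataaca
The NF-κB consensus, searched on both strands, was in the windows of 4 of the 34 genes, C1qb, Ccl7, Cxcl1 and Il6, and in 6.33% of all 33469 promoters. TATAAA, searched on both strands, was in 6 of the 34, Ccl6, Ccl7, Cx3cl1, Il1b, Laptm5 and Tnf, and in 12.9% of all promoters. The Il1b window holds no match to the NF-κB consensus used, which concerns these letters only.

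The complement genes did not pass the test in either direction, with 11 tested and 0 called in limma, and 1 of the 11, C4a, at an unadjusted p under 0.05. In the classical pathway, C1qa, a chain of the recognition protein C1q, read 1.96, 1.96 and 2.25 in BBMP rats, against 1.92, 2.25 and 2.18 in vehicle rats. The groups overlapped, and the difference was -0.059 (95% confidence interval -0.37 to 0.25; limma adjusted p = 0.767). C1qb and C1qc, the other chains, differed by -0.070 and -0.15, and for all 3 chains BBMP replicate 3 was the highest BBMP rat and vehicle replicate 1 the lowest vehicle rat. C1s, the protease of the C1 complex, read 1.17, 1.08 and 1.09 in BBMP rats, against 0.51, 0.97 and 0.93 in vehicle rats. Its groups did not overlap and vehicle replicate 1 stood low, but the difference of 0.31 did not pass the test (95% confidence interval -0.019 to 0.64; limma adjusted p = 0.154). A second C1s probe also separated the groups, with a difference of 0.38 (95% confidence interval 0.031 to 0.73; limma adjusted p = 0.114 over all probes).

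C4a, a form of the C4 protein that C1s cleaves, was the only one of the 43 genes with a 95% confidence interval wholly below 0. It read 4.12, 4.09 and 4.35 in BBMP rats, against 4.46, 4.58 and 4.43 in vehicle rats. Every BBMP rat was below every vehicle rat, with a difference of -0.31 (95% confidence interval -0.53 to -0.077; limma adjusted p = 0.0715). A second C4a probe differed by 0.14, and the near-identical copy C4b may share signal with these probes, so the direction of C4a is uncertain. The difference passed the limma threshold with normexp (-0.35; adjusted p = 0.0243) and with median scaling (-0.38; adjusted p = 0.0389), and was -0.081 as the mean of both probes (adjusted p = 0.526). C2, the protease subunit that pairs with C4, differed by 0.0072 with a 95% confidence interval of -0.13 to 0.14.

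C3, on which the pathways converge, read 0.38, 0.70 and 0.68 in BBMP rats, against 0.60, 0.52 and 0.88 in vehicle rats. The groups overlapped, with a difference of -0.081 (95% confidence interval -0.41 to 0.25; limma adjusted p = 0.699). Cfb, factor B of the alternative pathway, read -0.37, -0.26 and 0.043 in BBMP rats, against 0.13, -0.085 and -0.014 in vehicle rats, with a difference of -0.21 (limma adjusted p = 0.284). Cfd, factor D, differed by 0.16 with a wide interval of -0.68 to 1.01. Among the inhibitors, Cfi, the protease that inactivates C3b, read -0.64, -0.14 and 0.22 in BBMP rats, against -0.42, -0.20 and -0.19 in vehicle rats. The BBMP rats spanned all vehicle values, and the difference was 0.086 (95% confidence interval -0.46 to 0.63; limma adjusted p = 0.808). Serping1, C1 inhibitor, read 4.31, 4.56 and 4.70 in BBMP rats, against 4.73, 4.13 and 4.31 in vehicle rats, overlapping with a difference of 0.13 (limma adjusted p = 0.637). Its other probes differed by -0.045 with overlap and by 0.31 without overlap (limma adjusted p = 0.868 and 0.113 over all probes).

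Lists of further markers and of other pathway genes held 157 genes, of which 108 were tested, 7 were called higher and 2 lower in limma, 9 in all, and 27 had an unadjusted p under 0.05, against 17.9% called and 36.6% at an unadjusted p under 0.05 over all tested. The 27 include Fpr1, Ppbp and Fcna, which entered through the BBMP arrays alone. Among the 101 well above background on all 6 arrays, limma called 6 higher and 2 lower, or 7.92%, against 20.0% of all genes meeting that condition. Without 1 animal, limma called between 0 of the 108 (without BBMP replicate 2) and 6 (without vehicle replicate 3). Cxcl9, an interferon-induced T cell attractant, read -3.56, -3.35 and -3.54 in BBMP rats, against -3.02, -2.91 and -2.87 in vehicle rats, and fell by 0.55 on the log2 scale (limma adjusted p = 0.0165). C3ar1, the receptor of the C3a fragment, read -3.53, -3.48 and -3.37 in BBMP rats, against -2.98, -3.04 and -2.80 in vehicle rats, and fell by 0.52 (limma adjusted p = 0.0199). Both were also past the threshold with normexp, at -0.51 and -0.41. Cxcr3, the receptor of CXCL9 on T cells, went the other way and was 1.30-fold higher in BBMP rats (limma adjusted p = 0.0312), with a normexp difference of 0.018.

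The other genes called higher in limma were Blnk, a B cell adaptor (log2 difference 0.36), the cytokine Il11 (0.35), the receptor chain Il18r1 (0.65), the complement regulator Cd46 (0.37), the lectin pathway gene Fcna, and the NF-κB subunit gene Nfkb2 (0.27). Fcna was at least 1.29-fold higher by the bound used for Cd5, since 0 of 3 vehicle arrays were well above background for it. That bound does not allow for sampling error, and the fitted 95% confidence interval of Fcna was 1.21 to 2.13. Like Cd5, Fcna passed the filter through the BBMP arrays alone. With normexp, Blnk and Il11 stayed past the threshold, Cd46 and Nfkb2 differed by 0.020 and 0.13 without passing it, and Il18r1 and Fcna turned negative at -0.021 and -0.17. Of 6 tested neutrophil and mast cell markers, 0 were called in limma (1, Fpr1, at an unadjusted p under 0.05). Fpr1 entered through the BBMP arrays alone, with 0 vehicle arrays well above background, so its sign supports no count. With normexp its difference was -0.097. Of 27 tested chemokines and chemokine receptors outside the 49, 1 rose and 1 fell, and of 19 other complement genes 2 rose, Fcna among them, and 1 fell. Over all tested, 10.2% were called higher and 7.68% lower.

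Markers of tissues that a cortex sample could also hold were read beside these values. No erythroid marker of 4 tested and no adipocyte marker of 5 tested was called in limma, with 1 and 0 at an unadjusted p under 0.05. Of 5 tested adrenal markers, Th and Cyp21a1 were called higher in BBMP rats, by 0.36 and 0.59, against 10.2% of all tested called higher. Pnmt differed by 0.25, Cyp17a1 by 0.069 and Cyp11b2 by -0.29 without passing the test. The summed linear level of the 5 was 3.56 to 3.85 in BBMP rats and 2.86 to 2.99 in vehicle rats, without overlap, while Dbh, Cyp11b1 and Star were not tested. Th, with a mean log2 signal of 1.44 in BBMP rats and 1.08 in vehicle rats, made up most of that sum. The part of such tissues in the differences of Csf1r, Lck and Cd5 was not tested.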

How the data were processed

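Total RNA from 6 renal cortex samples was labelled with Cy3, per the labels' protocols, and scanned images were quantified by Agilent Feature Extraction, version 10.7.1.1 per the file headers and 10.7 per the submitters' processing notes. Per the file headers, the deposited files give linear intensity: a background-subtracted processed signal, the raw median of each spot, and a local background. Per the file headers, flags scored 0 or 1 mark spots that are well above background, saturated or outliers. The authors also deposited a combined table with 1 ratio for each probe on each array. Its making is not given in the sources used here. By comparison, each of its columns is proportional to the processed signal of another sample of the same group, within a relative tolerance of 0.002 for shares of 0.9995 to 0.9999 of the probes with a ratio above 1. The numbering of replicates is therefore uncertain, and group membership is not affected. The scanner files were used, by the sample recorded for each.

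Of 61657 non-control probes, 84 with ERCC spike-in sequences and 10 with outlier flags were left out. Processed signals were divided by the 75th percentile of their array and taken to log2. A probe entered the test where all 3 arrays of either group were well above background. RefSeq accessions were named through a GRCr8 table, for 27452 of 61563 probes. The array design is based on rn4 and none of its coordinates were used. The brightest probe stood for each gene. BBMP and vehicle were compared by a two-sided moderated test without covariates (lmFit, eBayes; limma 3.58.1, R 4.3.3), with Benjamini-Hochberg adjustment over all 31582 genes or sequences and a threshold of 0.05. Intervals are limma's 95% intervals. Precision is limited by having 3 arrays in each group. The fit was tested on simulated data. Plots were drawn in Python 3.11.15 with matplotlib 3.10.9.

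The members and lists were chosen with earlier results of these data known. Values per sample are given for members that were called, for the member with the largest difference and the brightest member of each role group, and for Ptprc, Csf1r, Ccl2, Cxcl1, Cx3cl1, Il1b, Tnf, C1qa, C3 and Cfi. The called genes of the other pathway and marker lists are named, except that a result for a renal cortex marker is not reported here. The second probes, Fcgr2b, Fcer1g, Laptm5, the C1q chains and the spread between animals were described after their values were seen. Alternatives covered background correction (normexp with an offset of 50 on the raw median signal, where the mean signal had been planned), scaling, the filter on dim probes, the authors' ratios, averaging of probes, moderation, blocks for replicate number and slide row, and leaving out each array. The counts of the other lists and the median over the members were added as results after seeing the data.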

Additional observations from a re-analysis of the deposited data

How the results depend on the processing

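Fits with a block for replicate number or slide row, or with fewer arrays, have fewer residual degrees of freedom by construction. Under the replicate block, with slide row as a block and in slide row 1 alone (3 BBMP arrays against 1 vehicle array, which is assumed to vary like the others), limma called 0 genes over all tested. Unadjusted p-values under 0.05 numbered 9943, 7288 and 7178 there. These settings also called 0 of the 43 members (7, 6 and 6 unadjusted) and 0 genes of the other lists (21, 19 and 14 unadjusted). The deviations of same-numbered arrays correlated at -0.116, -0.082 and -0.0676 across genes. The columns of the authors' table carry numbers rotated alike in both groups, so same-numbered arrays stay together in either numbering. Neither observation settles whether the replicate numbers pair the samples, and the main fit used no pairing. Under the replicate block the limma adjusted p of Csf1r was 0.0767 and that of Lck 0.0767.

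Leaving out 1 array at a time, limma called 3 to 4002 genes over all tested, 0 to 1 members (4 to 10 unadjusted) and 0 to 6 genes of the other lists, against 5659, 3 and 9 with all arrays. The lowest counts came without BBMP replicate 2, at 3, 0 and 0, and the highest without vehicle replicate 3. Over these 6 fits the difference ranged from -0.40 to 0.0021 for Cd79b, -0.27 to 0.067 for Lyz2, -0.47 to 0.39 for Cxcl1, -0.077 to 0.021 for Cx3cl1, -0.54 to 0.001 for Il1b, -0.031 to 0.15 for Il18, -0.24 to 0.26 for Tnf, -0.16 to 0.009 for C1qa, -0.15 to 0.026 for C3 -0.12 to 0.31 for Cfi, -0.10 to 0.080 for Cd14, -0.72 to 0.087 for Mrc1, -0.12 to 0.32 for Ccl5, -0.27 to 0.057 for C1qb, -0.013 to 0.023 for C2 and -0.11 to 0.45 for Cfd, so 16 of the 43 members changed sign.

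Normexp called 5 members, 2 higher (Csf1r and Cd3d) and 3 lower (Cd79b, Ccl7 and C4a), quantile normalization 1 and cyclic loess 1, each Csf1r. Quantile normalization called 5 genes of the other lists. Median scaling and moderation with a trend also called C4a lower. Normexp turned the differences of Cd5 (-0.084), Cd4 (-0.042), C2 (-0.078), Fcna (-0.17) and Il18r1 (-0.021). Median scaling turned Tyrobp (-0.021), Il18 (-0.0083), Ccl5 (-0.038) and C2 (-0.068), quantile normalization and cyclic loess C2 (-0.021 and -0.028), and the mean of all probes Cx3cl1 (0.068) and Cd14 (0.030). Both slide row settings turned Cd79b (0.20), Il18 (-0.020), Tnf (0.26), Aif1 (0.0093), Ccl5 (-0.047), Ccl7 (0.094) and C2 (-0.024). The causes were not tested. The share of calls that were higher was 57.1% over all genes, 36.4% with normexp, 35.9% with median scaling, 48.9% with quantile normalization, 46.6% with cyclic loess and 47.2% without the filter on dim probes. Normexp moved the median difference of all genes to -0.062. Its fixed offset can lower the differences of dim genes by construction, so its lower calls and lost calls among dim genes are no neutral check. Of 56 alternative values of the 3 called members, 22 kept the call, 33 lost it and 1 changed sign. Of 760 values of the other members, 6 gained a call and 51 changed sign.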

Other observations

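Some genes of the other chemokine, complement and myeloid lists differed widely between rats without passing limma's test, and were picked after their values were seen. Cxcl14, a chemokine made by epithelia, read 1.87, 1.34 and -0.26 in BBMP rats, against -0.18, -0.17 and -0.22 in vehicle rats. BBMP replicates 1 and 2 stood above all vehicle rats and BBMP replicate 3 just below them (difference 1.17, 95% confidence interval -0.14 to 2.49; limma adjusted p = 0.171). Cxcl13, a B cell attractant, read -0.89, -1.67 and 0.31 in BBMP rats, against 0.13, 0.75 and 0.51 in vehicle rats, with BBMP replicate 3 inside the vehicle range (difference -1.21; limma adjusted p = 0.143). Clu, which encodes clusterin, an inhibitor of the terminal complement complex that is also made by injured tubules, read 4.87, 3.16 and 4.25 in BBMP rats, against 2.63, 3.64 and 3.11 in vehicle rats (difference 0.97; limma adjusted p = 0.204). S100a8, a calprotectin subunit of neutrophils, read -2.62, -2.73 and -2.96 in BBMP rats, against -1.63, -2.38 and -2.50 in vehicle rats, without overlap of the groups (difference -0.60; limma adjusted p = 0.137). The Fc receptor gene Fcgr3a read 0.18, -0.53 and 0.36 in BBMP rats, against 0.34, 0.73 and 0.78 in vehicle rats (difference -0.61; limma adjusted p = 0.147).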
